A study of Rattus norvegicus with 12 samples.

Results

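The 7 genes described here are the mitochondrially encoded subunits of respiratory complex I, measured by RNA sequencing in the left ventricle (LV) of neonatal rats. They were chosen by their Ensembl identifiers out of 34733 rows in the count files, and all 7 were found: Mt-nd1 (ENSRNOG00000030644), Mt-nd2 (ENSRNOG00000031033), Mt-nd3 (ENSRNOG00000033615), Mt-nd4l (ENSRNOG00000031053), Mt-nd4 (ENSRNOG00000029707), Mt-nd5 (ENSRNOG00000029971) and Mt-nd6 (ENSRNOG00000029042). The genes were selected on an inspection of their CPM (counts per 1000000 counts of the library) by surgery and day, so their levels and fold changes are given as a description. The numbers of members past a test's threshold stand beside those over all genes for the same reason, and nothing is read from them. All 7 passed the filter on low counts in every comparison. The symbols come with the choice of the genes, because the files pair identifiers with no symbols.

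The study set sham surgery against ABS, or abdominal aortic banding surgery. Banding ties off part of the abdominal aorta's width and is meant to load the LV with pressure. Sprague–Dawley pups of both sexes were operated on at postnatal day 1, and LVs were taken at postnatal day 3 (P3) or 7 (P7). The paper's blood pressure readings came from later ages, so the load at P3 and P7 was not measured. The 4 groups (ABS at P3, sham at P3, ABS at P7 and sham at P7) had 3 libraries each, no genotype or drug differed between them, and the study's allocation of 3 pups to sequencing for each surgery and day gives 1 pup per library. The labels name the tissue left ventricular myocardiocytes, whereas the methods name the LV. The cell types were not checked here, because markers are known by symbol, and in bulk RNA fewer cells of a type cannot be told apart from less RNA per cell.

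Complex I (NADH:ubiquinone oxidoreductase) takes electrons from NADH, passes them to ubiquinone and pumps protons across the inner mitochondrial membrane, and it is a main entry point of electrons into oxidative phosphorylation, which supplies ATP to cardiomyocytes. Most of its subunits are made from nuclear genes, while the 7 hydrophobic subunits that form the core of the membrane arm are made from mitochondrial DNA. ND1 helps to form the quinone-binding pocket, ND3 holds a loop that moves between the active and resting states of the enzyme, and ND6 and ND4L lie in the membrane between that pocket and the pumps. ND2, ND4 and ND5 are the antiporter-like pump subunits. Mt-nd6 is transcribed from the opposite strand to the other members, and the reading frames of Mt-nd4l and Mt-nd4 overlap within a single mRNA.

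Library totals were 14268210 to 17286278 counts. The 7 genes together held 3.54% to 4.99% of all counts of a library. A single gene held 4572 to 372847 counts, so that the counting error was 1.48% of the lowest count and 0.164% of the highest. At P7, 18579 to 18982 genes were detected with at least 1 count. At P3, the number ranged from 15266 to 18359, and 3 libraries stood apart with fewer than 16000: ABS replicate 1 (15266), ABS replicate 2 (15719) and sham replicate 2 (15451). Some results at P3 are therefore also given without these 3 libraries, a choice made after seeing the data. Pooled over ABS and sham, the spread between libraries of one group was larger at P3 than at P7 for all 7 genes, although in the ABS group alone that of Mt-nd6 was smaller at P3 (197 against 215 CPM). The standard deviation (SD) of log2 CPM, pooled over ABS and sham, had a median over the 7 genes of 0.512 at P3 and 0.137 at P7, beside medians of 0.585 and 0.172 over all 15236 genes tested.

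The summed level of the 7 genes was 58148, 43009 and 44008 CPM in the 3 ABS libraries of P3 and 43759, 51660 and 37401 CPM in the 3 sham libraries, after scaling of the library totals by the trimmed mean of M values (TMM). At P7, it was 38836, 42161 and 33518 CPM after ABS and 37652, 37257 and 35119 CPM after sham surgery. The ABS and sham libraries overlapped on both days. The group means were 48388 ± 8467 CPM (SD, n = 3) for ABS and 44273 ± 7143 CPM for sham at P3, and 38172 ± 4360 CPM and 36676 ± 1363 CPM at P7. The mean level was thus higher at P3 than at P7 after either surgery, but this gap depended on the scaling. On the log2 scale, the P7 level minus the P3 level was -0.26 for sham and -0.335 for ABS libraries with TMM scaling, and -0.062 and -0.152 as a share of the total counts. The total-count scale also moved the median log2 fold change of all genes between the days, to 0.215 in sham and 0.231 in ABS libraries, from 0.00569 and 0.00796 with TMM.

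**Figure D1:**
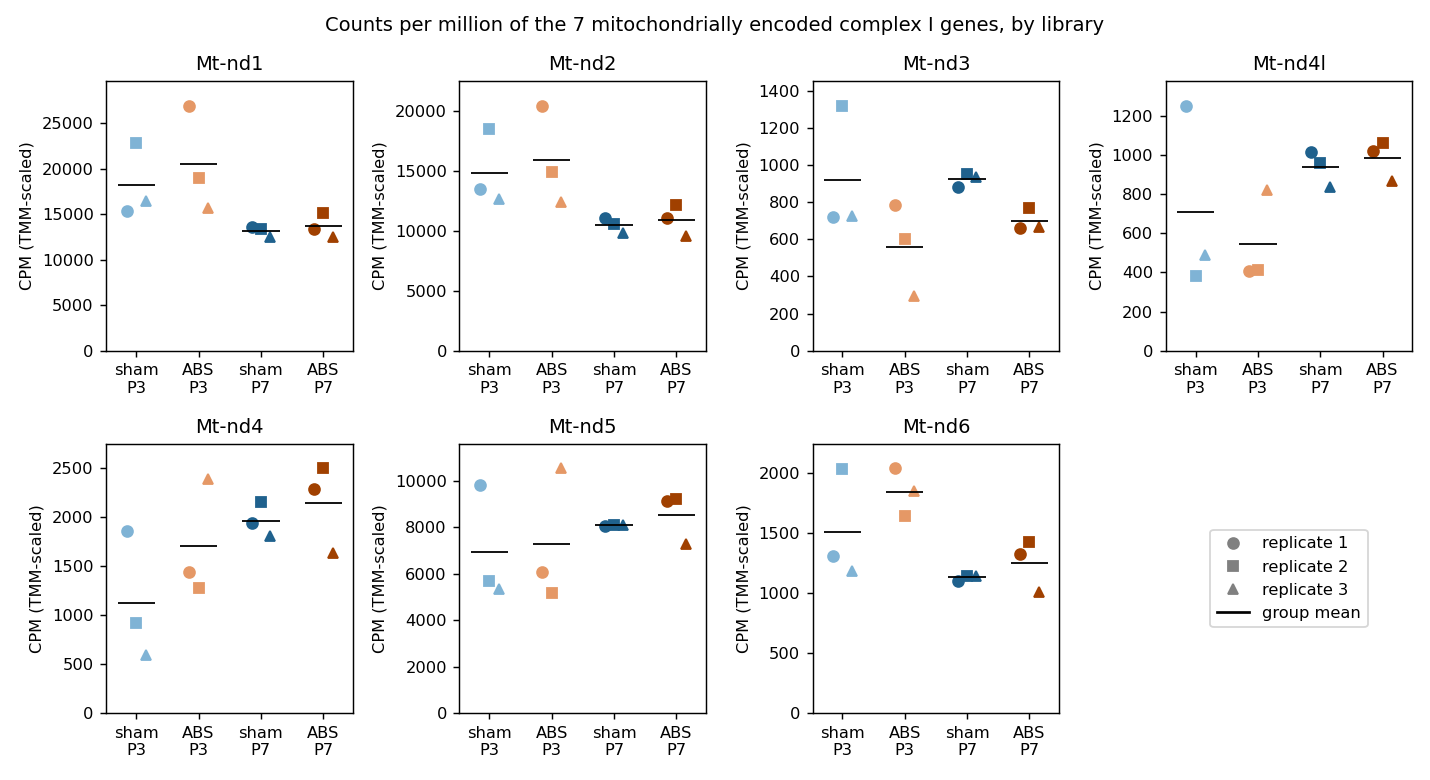
CPM (TMM-scaled, linear axes from 0, a separate scale for each gene) of the 7 genes in the sham and ABS libraries of P3 and P7. Points are libraries, with circles, squares and triangles for replicates 1, 2 and 3, and black lines are group means. The P3 points of a surgery are spread more widely than its P7 points, except for Mt-nd6 after ABS, and at P7 the 3 ABS points of Mt-nd3 (660 to 765 CPM) lie below the 3 sham points (882 to 953 CPM).

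Among the subunits near the quinone pocket, Mt-nd1 was at 26913, 18996 and 15677 CPM in the ABS libraries and at 15296, 22841 and 16436 CPM in the sham libraries at P3, given here and throughout in the order of replicates 1, 2 and 3. At P7, the values were 13379, 15068 and 12493 CPM for ABS and 13615, 13375 and 12459.7 CPM for sham. The ABS and sham libraries overlapped on each day, and both P3 groups lay above the P7 group of the same surgery.

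Mt-nd6 was at 2037, 1643 and 1848 CPM in the ABS libraries and 1304, 2029.9 and 1184 CPM in the sham libraries at P3. Its P7 values were 1323, 1424 and 1010.4 CPM after ABS and 1103, 1139.7 and 1146 CPM after sham surgery. As for Mt-nd1, ABS and sham overlapped on both days, and the P3 libraries lay above the P7 libraries of the same surgery. In the sham group this gap was narrow (1184 against 1146 CPM) and was lost as a share of total counts, where the lowest P3 library stood at 0.117% and the highest at P7 at 0.1245%. In the ABS group it nearly closed on that scale, with the lowest P3 library at 0.1501% and the highest at P7 at 0.1499%. The library kit does not mark strand, so counts of Mt-nd6 cannot be told apart from transcripts of the other strand at this position.

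Mt-nd4l was at 407, 414 and 819.7 CPM in the ABS libraries and at 1252, 380.0 and 490.3 CPM in the sham libraries of P3. At P7, it was at 1020.1, 1059 and 869 CPM after ABS and 1014, 958 and 836 CPM after sham surgery. Its P3 libraries fell apart within each surgery group. The highest of them, sham replicate 1, exceeded the P7 libraries, and the lowest was sham replicate 2.

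Mt-nd3 was at 786, 600.6 and 294 CPM in the ABS libraries and 719.7, 1319 and 724 CPM in the sham libraries of P3. At P7, it was at 659.5, 765 and 667 CPM after ABS and at 882, 953 and 932 CPM after sham surgery. At P3, ABS replicate 1 lay above 2 of the sham libraries, so the groups overlapped. At P7, they did not, and the group means were 697 ± 59.0 CPM for ABS and 923 ± 36.4 CPM for sham (SD, n = 3).

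Of the pump subunits, Mt-nd2 was at 20485, 14894 and 12456 CPM in the ABS libraries and 13512, 18505 and 12648 CPM in the sham libraries at P3. At P7, it stood at 11071, 12143 and 9565 CPM after ABS and at 11070.5, 10588 and 9843 CPM after sham surgery. As for Mt-nd1, ABS replicate 1 and sham replicate 2 were the highest libraries of P3.

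Mt-nd5 showed another order. It was at 6076, 5181 and 10527 CPM in the ABS libraries and at 9817, 5664 and 5321 CPM in the sham libraries of P3. ABS replicate 3 and sham replicate 1 were thus high and the other 4 libraries low, with none of the 6 between 6076 and 9817 CPM. At P7, the ABS libraries were at 9101, 9206 and 7278 CPM and the sham libraries at 8032, 8089 and 8101 CPM, and thus all 6 lay between the low and the high libraries of P3.

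Mt-nd4 was at 1444, 1281 and 2385 CPM in the ABS libraries and 1858, 921 and 598 CPM in the sham libraries at P3. The values at P7 were 2283, 2496 and 1635 CPM after ABS and 1935, 2155 and 1802 CPM after sham surgery. The same pair, ABS replicate 3 and sham replicate 1, was highest at P3, and sham replicate 3 was lowest.

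The counts of 1 library can be compared between genes without any scaling between libraries. In such log2 ratios, gene length cancels when libraries are compared, whereas levels of different genes are not ranked here, as gene lengths were not used. At P7, the SD over the 6 libraries of the log2 ratio of a pair was 0.0389 to 0.335 for the 21 pairs of the 7 genes. At P3, it was 0.0775 to 1.28, and it was larger than at P7 for 21 of 21 pairs. Mt-nd1 and Mt-nd2 kept the most even ratio at P3 (SD 0.0775), followed by Mt-nd2 and Mt-nd6 (0.243) and Mt-nd1 and Mt-nd6 (0.248). Mt-nd4l and Mt-nd5 (0.349) and Mt-nd4 and Mt-nd5 (0.433) came next. The SD was 0.622 for Mt-nd4l and Mt-nd4, 0.578 for Mt-nd5 and Mt-nd6, 0.697 for Mt-nd1 and Mt-nd5, 0.843 for Mt-nd1 and Mt-nd4 and 0.964 for Mt-nd1 and Mt-nd4l. The widest were the pairs of Mt-nd3 with Mt-nd4 (1.28), Mt-nd4l (1.2) and Mt-nd5 (1.04). Its SDs with Mt-nd6, Mt-nd1 and Mt-nd2 were 0.756, 0.585 and 0.56. These SDs take the ABS and sham libraries together. Without the 3 libraries of few detected genes, the values of Mt-nd1 with Mt-nd5, Mt-nd4 and Mt-nd4l were 0.59, 1.11 and 0.73 over 3 libraries.

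**Figure D2:**
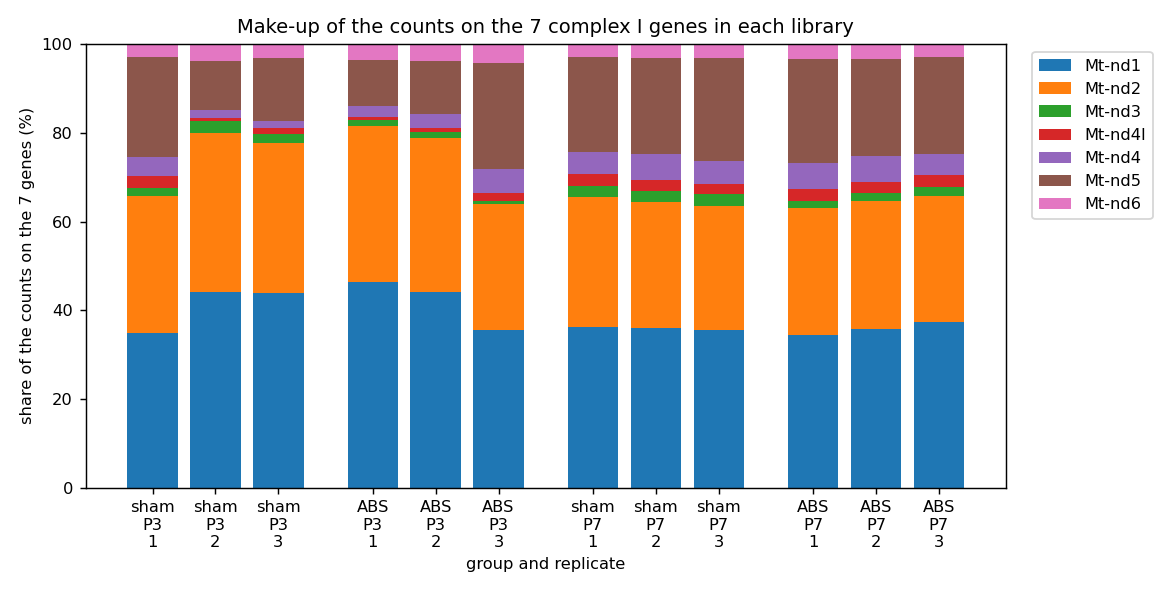
Share of each gene in the counts on the 7 genes (%), stacked to 100%, for each of the 12 libraries, ordered by group and replicate. The bars of P7, of ABS replicate 3 at P3 and of sham replicate 1 at P3 have a wide Mt-nd5 part (21.3% to 23.9%), and the other 4 bars of P3 a narrower one (10.4% to 14.2%).

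As a share of the counts on the 7 genes, Mt-nd5 held 10.4%, 12.1% and 23.9% in the ABS libraries and 22.4%, 11.0% and 14.2% in the sham libraries at P3. At P7, its share was 21.7% to 23.4% after ABS and 21.3% to 23.1% after sham surgery. The share of Mt-nd1 was 46.3%, 44.2% and 35.6% in the ABS libraries and 35.0%, 44.2% and 44.0% in the sham libraries at P3, and 34.4% to 37.3% at P7. Thus 2 libraries of P3, 1 from each surgery, had Mt-nd1 and Mt-nd5 shares close to those of P7, and the other 4 had more Mt-nd1 and less Mt-nd5. Some shares of other members in these 2 libraries lay outside the P7 range. Examples were Mt-nd6 at 4.20% in ABS replicate 3 (2.93% to 3.41% at P7) and Mt-nd2 at 30.9% in sham replicate 1 (28.0% to 29.4% at P7). Others lay within it, such as Mt-nd2 at 28.3% in ABS replicate 3 and Mt-nd6 at 2.98% in sham replicate 1.

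This division of the P3 libraries moved with the number of detected genes. The log2 ratio of Mt-nd5 to Mt-nd1 was -2.15, -2.01 and -1.87 in the 3 libraries with fewer than 16000 detected genes, -1.63 in sham replicate 3 with 17259, -0.57 in ABS replicate 3 with 17530 and -0.64 in sham replicate 1 with 18359. It was -0.78 to -0.56 in the 6 libraries of P7. Sham replicate 3 and ABS replicate 3 thus had nearly the same number of detected genes and ratios of -1.63 and -0.57. The TMM factors, which rescale the totals, were 0.858, 0.913 and 0.822 in the 3 libraries of few detected genes, 1.05, 1.01 and 0.989 in the other 3 of P3 and 1.05 to 1.09 at P7. The part of RNA quality or library preparation in this division was not tested.

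**Figure D3:**
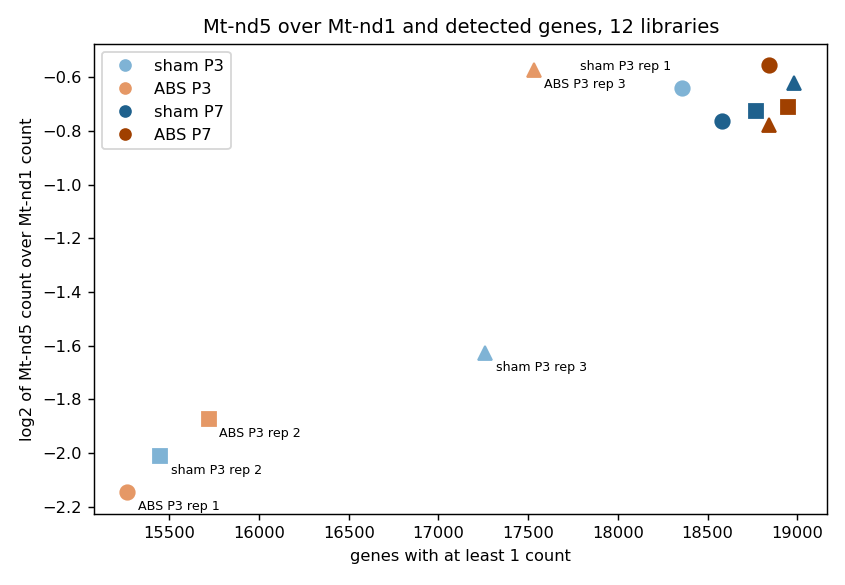
Log2 ratio of the Mt-nd5 count to the Mt-nd1 count against the detected genes (at least 1 count) of each of the 12 libraries, with colours for the groups and circles, squares and triangles for replicates 1, 2 and 3. The P7 libraries lie together at -0.78 to -0.56, and the P3 libraries extend from -2.15 to -0.57, with ABS and sham libraries at both ends.

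The effect of ABS at P3 was the first comparison. With edgeR's quasi-likelihood test, 0 of the 7 genes passed an adjusted p under 0.05, as did 0% of the 14222 genes tested. An unadjusted p under 0.05 was found for 0 of the 7 and for only 47 of the 14222 genes, so few genes of any kind reached it. DESeq2 also called 0 of the 7, and 4 of 20149 genes (0.0199%). The ABS and sham libraries overlapped for all 7, whereas 3.45% of all genes had groups that did not overlap. The fitted log2 fold change was 0.62 (standard error (SE) 0.47) for Mt-nd4, 0.31 (SE 0.32) for Mt-nd6, 0.20 (SE 0.36) for Mt-nd1, 0.12 (SE 0.35) for Mt-nd2 and 0.09 (SE 0.41) for Mt-nd5. It was -0.35 (SE 0.52) for Mt-nd4l and -0.70 (SE 0.45) for Mt-nd3. The median was 0.121 over the 7 genes and -0.00512 over all genes tested, and the absolute values had medians of 0.309 and 0.172. Only Mt-nd3, Mt-nd4 and Mt-nd6 kept their sign in all 15 alternative fits. For Mt-nd1 and Mt-nd2 the sign turned without ABS replicate 1 or without the 3 libraries of few detected genes. It turned for Mt-nd4l without sham replicate 1, and for Mt-nd5 when ABS replicate 3 or either of the sham replicates 2 and 3 was left out. Without the 3 libraries of few detected genes, which left 1 ABS library, Mt-nd4 was at 0.956, Mt-nd6 at 0.568 and Mt-nd5 at 0.473. In that fit, Mt-nd1, Mt-nd2, Mt-nd4l and Mt-nd3 were at -0.021, -0.074, -0.09 and -1.3.

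The same comparison at P7 was made with a smaller spread. With edgeR, 0 of the 7 genes and 0% of the 14635 genes tested passed the adjusted threshold. An unadjusted p under 0.05 was found for 1 of the 7, Mt-nd3, and for 498 of the 14635 genes. DESeq2 called 1 of the 7, also Mt-nd3, and 10 of 19085 genes in all (0.0524%). Mt-nd3 had a log2 fold change of -0.40 (SE 0.08), or 0.755 times the sham level. Of the members it alone had separate ABS and sham libraries, as had 8.76% of all genes. The other 6 log2 fold changes were 0.05 to 0.15, with SEs of 0.10 to 0.15. The median was 0.0702 over the 7 genes and -0.000597 over all genes, with medians of the absolute values of 0.0784 and 0.094. Mt-nd3 kept its sign in 14 of 14 alternative fits, with values from -0.478 to -0.365. As its groups were already separate, leaving out 1 library could hardly turn this sign, and nothing is read from that count. Of the other members, Mt-nd5 and Mt-nd6 kept theirs too, Mt-nd1, Mt-nd2 and Mt-nd4 turned without ABS replicate 2, and Mt-nd4l turned without sham replicate 3.

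Mt-nd3 also differed from the other members in its share. Of the counts on the 7 genes, it held 1.70%, 1.81% and 1.99% in the ABS libraries and 2.34%, 2.56% and 2.66% in the sham libraries at P7. At P3, its share was 1.35%, 1.40% and 0.668% in the ABS libraries and 1.65%, 2.55% and 1.94% in the sham libraries. The ABS share lay below the sham share on both days, although the CPM values overlapped at P3. As a share of total counts at P3, the ABS libraries (0.0308% to 0.0675%) likewise lay below the sham libraries (0.0716% to 0.108%). On that scale, the surgery groups did not overlap for 3.21% of all genes at P3 and 9.03% at P7, and Mt-nd3 was the 1 member among them on each day.

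The log2 ratio of Mt-nd3 to Mt-nd1 was -5.10, -4.98 and -5.74 in the ABS libraries and -4.41, -4.11 and -4.50 in the sham libraries at P3. At P7, it was -4.34, -4.30 and -4.23 after ABS and -3.95, -3.81 and -3.74 after sham surgery. A ratio to Mt-nd1 that was lower in all ABS libraries was found for 2.87% of 14221 genes at P3 and for 5.06% of 14634 genes at P7, and Mt-nd3 was the 1 member of this kind on each day. All 6 ratios of Mt-nd3 to another member had separate groups at P7 and 3 of the 6 at P3, those to Mt-nd1, Mt-nd2 and Mt-nd6. In ratio to Mt-nd4, 2.6% of 14634 genes were lower in all ABS libraries at P7, with Mt-nd3 the 1 member among them. Ratios to Mt-nd2, Mt-nd4l, Mt-nd5 and Mt-nd6 were not counted over all genes. The 6 ratios share Mt-nd3, so they are not independent of each other. Without the 3 libraries of few detected genes, the ratio to Mt-nd1 at P3 was -5.74 in the remaining ABS library and -4.41 and -4.50 in the sham libraries. The log2 fold change of Mt-nd3 at P3 ranged from -1.30 to -0.324 over the alternative fits.

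**Figure D4:**
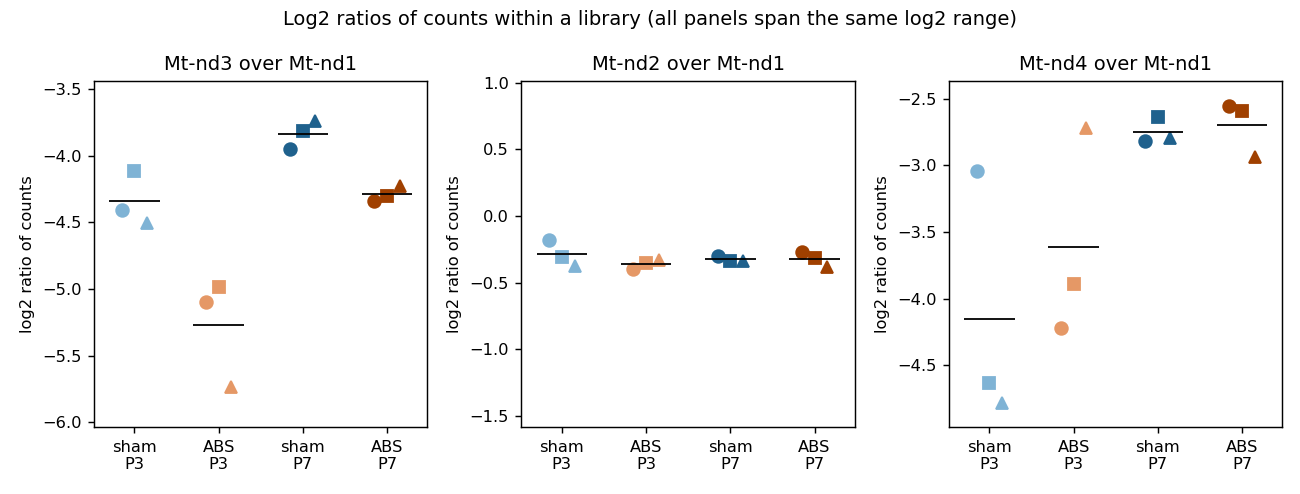
Log2 ratios of the counts of Mt-nd3, Mt-nd2 and Mt-nd4 to the count of Mt-nd1 in each library, by group, with circles, squares and triangles for replicates 1, 2 and 3 and lines for group means. The 3 panels span equal log2 ranges: Mt-nd3 lies lower in the ABS than in the sham libraries of each day, Mt-nd2 stays between -0.39 and -0.18 in all 12 libraries, and Mt-nd4 is spread from -4.78 to -2.72 at P3.

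Whether the surgery effect differed between the days was examined with all 12 libraries in one fit, by the surgery-by-day interaction. By edgeR's adjusted threshold 0 of the 7 genes and 0% of 15236 genes were called. An unadjusted p under 0.05 was found for 0 of the 7 and for only 176 of the 15236 genes, so few genes of any kind reached it. DESeq2 called 0 of the 7 and 5 of 22591 genes (0.0221%). The P7 effect minus the P3 effect was 0.44 (SE 0.57) for Mt-nd4l, 0.31 (SE 0.48) for Mt-nd3 and -0.48 (SE 0.53) for Mt-nd4 on the log2 scale. For the other 4 genes it lay between -0.14 and 0.01, with SEs of 0.32 to 0.42. Each of the 7 values was smaller than its SE. The sign for Mt-nd5 (0.01) turned in 12 of 20 alternative fits, among them those with RLE size factors and with total counts. It turned in 5 for Mt-nd2, in 2 each for Mt-nd1 and Mt-nd3, in 1 each for Mt-nd4l and Mt-nd6, and in 0 for Mt-nd4.

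From P3 to P7 in the sham group, edgeR called 0 of the 7 genes and 0.00684% of 14619 genes (1 gene) at the adjusted threshold. Of the 7, 0 had an unadjusted p under 0.05, as against 2360 of the 14619 genes. DESeq2 called 0 of the 7 and 410 of 14749 genes (2.78%). The libraries of the 2 days did not overlap for 3 members, Mt-nd1, Mt-nd2 and Mt-nd6, which were all lower at P7, and for 30.0% of all genes. Their log2 fold changes were -0.50 (SE 0.24), -0.53 (SE 0.24) and -0.44 (SE 0.26). With total counts in place of TMM, they were -0.253, -0.29 and -0.191, beside a median over all genes of 0.215. With TMM and without sham replicate 2 of P3, they were -0.279, -0.324 and -0.146. Mt-nd4 had a value of 0.79 (SE 0.41), Mt-nd4l of 0.39 (SE 0.44), Mt-nd5 of 0.20 (SE 0.28) and Mt-nd3 of -0.03 (SE 0.29), a sign that turned in 5 of 15 alternative fits, total counts among them. As a share of total counts, Mt-nd4 was higher in all P7 libraries (0.196% to 0.229%) than in the P3 libraries (0.0591% to 0.188%), Mt-nd6 overlapped, and 30.9% of all genes did not. Without sham replicate 1 of P3, 2 of the 7 genes, Mt-nd4l and Mt-nd4, passed the adjusted threshold, along with 32.2% of all genes.

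From P3 to P7 in the ABS group, edgeR called 0 of the 7 genes and 0.0138% of 14504 genes (2 genes). An unadjusted p under 0.05 was found for 3 of the 7, Mt-nd1, Mt-nd4l and Mt-nd6, and for 2571 of the 14504 genes. DESeq2 called 0 of the 7 and 510 of 15848 genes (3.22%). The days did not overlap for 4 members, of which Mt-nd1, Mt-nd2 and Mt-nd6 were lower and Mt-nd4l higher at P7, and for 27.9% of all genes. Their log2 fold changes were -0.64 (SE 0.27), -0.60 (SE 0.26), -0.61 (SE 0.21) and 0.81 (SE 0.30). With total counts in place of TMM, they were -0.386, -0.344, -0.376 and 0.984, beside a median over all genes of 0.231. With TMM, the first 2 were -0.388 and -0.367 without ABS replicate 1 of P3. Without the 3 libraries of few detected genes, which left 1 ABS library of P3, the 4 values were -0.212, -0.201, -0.574 and 0.249. As a share of total counts, Mt-nd3 was also higher in all P7 libraries (0.0704% to 0.0806%) than in the P3 libraries (0.0308% to 0.0675%), and 28.1% of all genes did not overlap on this scale. The days of Mt-nd6 were barely apart on it (lowest at P3 0.1501%, highest at P7 0.1499%). The values of the members that overlapped in CPM were 0.29 (SE 0.29) for Mt-nd4, 0.26 (SE 0.36) for Mt-nd3 and 0.19 (SE 0.30) for Mt-nd5. Without ABS replicate 3 of P3, 6 of the 7 genes, all but Mt-nd3, passed the adjusted threshold, and so did 50.1% of all genes. With the 3 libraries of few detected genes left out instead, so that 1 ABS library of P3 remained and was assumed to vary like the others, Mt-nd3 alone passed, with 3.15% of all genes, and the values of Mt-nd4 and Mt-nd5 turned below 0. The median log2 fold change over the 7 genes was -0.0283 in sham and 0.193 in ABS libraries, beside 0.00569 and 0.00796 over all genes, and the median of the absolute values was 0.444 and 0.599, beside 0.455 and 0.495.

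**Figure D5:**
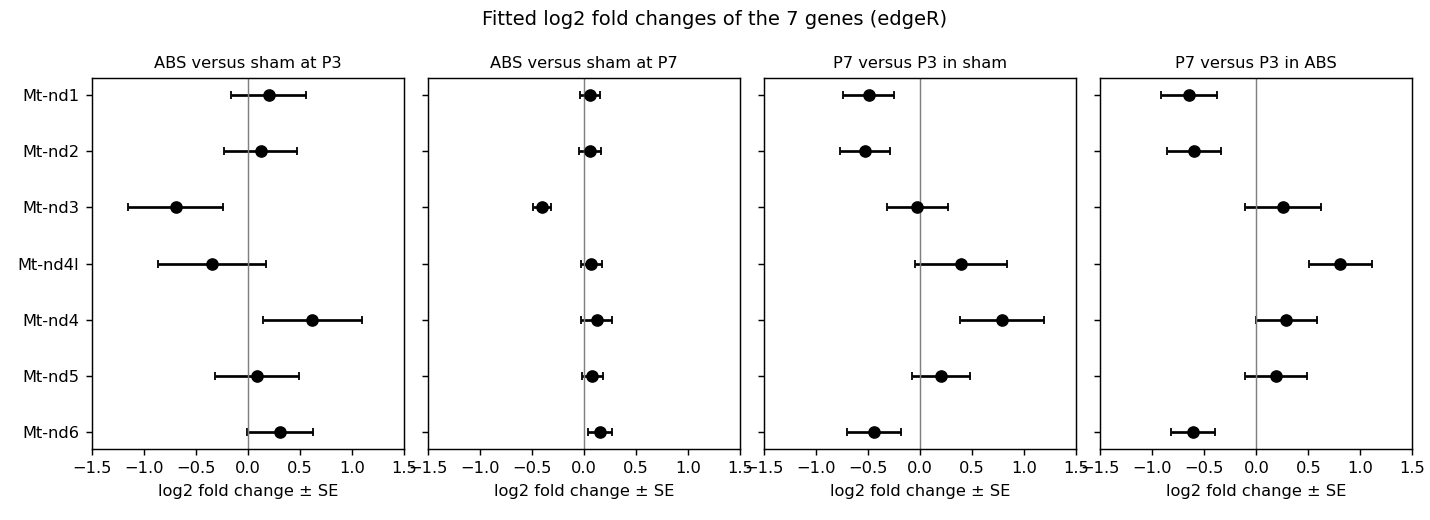
Log2 fold changes of the 7 genes fitted with edgeR in 4 comparisons, as points with bars of 1 SE on either side, and a line at 0. For ABS against sham, Mt-nd3 has the lowest value on both days (-0.70 and -0.40). For P7 against P3, Mt-nd1, Mt-nd2 and Mt-nd6 lie at -0.64 to -0.44 in both surgery groups with the TMM scaling used here.

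The genes whose pattern was most like the summed level of the 7 were sought among 9120 other genes (mean CPM of 10 or more), by Pearson correlation of log2 CPM over the 12 libraries, which share their scaling and fall into days and surgeries. The highest value was 0.962, for ENSRNOG00000031766, and the next 0.939, for ENSRNOG00000026059, and the 10 highest were 0.891 to 0.962. Of the members themselves, Mt-nd2 (0.954), Mt-nd1 (0.926) and Mt-nd6 (0.92) followed the sum, which consists mostly of Mt-nd1 and Mt-nd2 counts. The values for the rest were 0.053 for Mt-nd3, -0.163 for Mt-nd4, -0.248 for Mt-nd5 and -0.558 for Mt-nd4l.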

How the data were processed

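RNA of 12 libraries was sequenced by the authors from poly-T-selected RNA with a NEBNext Ultra kit as paired-end reads. Per the labels and methods, the authors removed adapter, poly-N and low-quality reads. The processing notes name HISAT2 2.0.5, and featureCounts counted reads. The deposited values are counts per gene, not normalized. The notes name GRCm38 (mm10), a mouse build, although the rows carry rat Ensembl identifiers. The strand setting, and how reads shared with nuclear copies of mitochondrial DNA were counted, are not given in the sources used here, so levels of single genes are uncertain where such copies exist.

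The counts were fitted with edgeR 4.0.16 in R 4.3.3 (TMM, filterByExpr, robust quasi-likelihood F test, two-sided, Benjamini-Hochberg adjustment over all genes), on the 6 libraries of a comparison, or on 12 for the interaction. DESeq2 1.42.0, other scalings, filters, a replicate block and fits with 1 library left out were alternatives. Each SE was derived from the test, as the absolute log2 fold change divided by the square root of its F statistic. CPM used TMM-scaled totals of 12 libraries. Over genes of low count, the variance between 2 replicates of a group was 7.04 to 12.2 times that of sampling noise at P3. At P7 it was 2.55 to 3.16 times that variance, so no library repeated another.

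The members and lists were chosen with earlier results of these data known. The rule for named genes was to name the 7 members and, from lists of symbols, nuclear complex I subunits and other mitochondrial genes. As 0 of 32883 identifiers matched the RefSeq table (GRCr8), those lists and the cell type markers were not analysed here, and no sequence is shown.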

Additional observations from a re-analysis of the deposited data

How the results depend on the processing

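The number of members past an adjusted p under 0.05 was 0 in all 5 comparisons with edgeR. It moved to 1 (Mt-nd3) with DESeq2 for ABS against sham at P7, and to 1 (Mt-nd3) without the 3 P3 libraries of few detected genes, an alternative added after seeing the data, for P7 against P3 in the ABS group. With 1 library left out in turn, it ranged from 0 to 2 for P7 against P3 in the sham group and from 0 to 6 in the ABS group, with the highest values without sham replicate 1 and without ABS replicate 3 of P3, and it stayed at 0 in the other comparisons. The cause was not tested. Over all genes, edgeR called 0, 0, 0, 1 and 2 genes for ABS against sham at P3 and P7, the interaction, and P7 against P3 in sham and ABS, and DESeq2 called 4, 10, 5, 410 and 510. For ABS against sham, the paper reports far more genes at P3 and at P7, with an earlier DESeq2 version and the same threshold. The reason for this gap was not tested. Without the filter, 3 genes were called at P7 and 2 in sham; with 1 library left out, 1 to 3 genes were called at P7, 0 to 4820 in sham and 0 to 7468 in ABS. All 12 libraries fitted together gave 14 in ABS. Over the 553 fits of a member under an alternative, the sign of its log2 fold change turned in 43, of which 23 concerned the interaction and 3 came from another scaling. The summed level moved by more than the spread between replicates in 1 of 45 alternatives, the share of total counts for P7 against P3 in the sham group. Replicate numbers tie no ABS library to a sham library in the labels. Across genes, deviations from group means of like-numbered libraries had correlations of -0.45, 0.36 and -0.0091 (P3) and 0.011, 0.054 and 0.0046 (P7). The best match was the like-numbered library for 1 of 6 libraries of P3 and 3 of 6 of P7, and no pairing was used. With a replicate block as an added term, 0 members and 0 genes were called in each comparison. The alternatives on nuclear complex I genes, including their ratio to the members, were not run, as identifiers and symbols are not paired. Depth put the counting error of a member at 0.164% to 1.48%.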

Other observations

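At P3, 5 of the 21 ratios between members had ABS and sham libraries that did not overlap. Of these, 3 involved Mt-nd3, and the other 2, noticed after the values were seen, set Mt-nd4 against Mt-nd5 and Mt-nd4l. In ratio to Mt-nd4, 11.5% of 14221 genes were lower in all ABS libraries at P3, with 2 members, Mt-nd4l and Mt-nd5, among them. The share of separate groups over pairs of genes in general was not computed. The log2 ratio of Mt-nd4 to Mt-nd5 was -2.07, -2.02 and -2.14 in the ABS libraries and -2.40, -2.62 and -3.15 in the sham libraries. That of Mt-nd4l to Mt-nd4, whose reading frames overlap, was -1.83, -1.63 and -1.54 after ABS and -0.57, -1.28 and -0.29 after sham surgery. At P7, the surgery groups overlapped in both ratios. Mt-nd4 to Mt-nd5 was then at -2.15 to -1.88 after ABS and -2.17 to -1.91 after sham surgery, and Mt-nd4l to Mt-nd4 at -1.24 to -0.91 and -1.17 to -0.93. No test was run on these ratios.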
